A study of Xenopus laevis with 6 samples.

Results

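The genes described here encode the ligands, receptors, Smads, extracellular regulators and proteases of the bone morphogenetic protein (BMP) pathway in Xenopus laevis. They were chosen by name: every gene whose symbol, without its L or S suffix, was among 33 listed pathway symbols. The species is allotetraploid, and L and S mark the homeologs of a gene on the long and the short subgenome. Of the 33 symbols, 29 were in the table, as 54 homeologs (28 L and 26 S) of 49281 genes in all. No gene was listed under the plain symbols bmp7, smad4, smad5 and chrd. Copies that carry a further number, such as bmp7.1, fell outside the rule and are given after the homeologs.

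RNA from wild type animal pole explants was measured at stage 17 in 6 libraries. The animal pole of the blastula is a sheet of pluripotent cells that becomes epidermis when cultured alone. In 3 libraries the explants had been exposed to K02288 and CHIR from stage 9 onward, and the labels call these cells reprogrammed to neural crest. In the other 3 libraries the explants had received DMSO over the same stages, and the labels call them epidermal. K02288 blocks the kinase of BMP type I receptors, and CHIR99021 activates canonical Wnt signalling by inhibiting GSK3. Because both compounds were always given together, their separate effects cannot be told apart here. The sources used here state no doses, clutches or numbers of explants per library. The p-values thus measure spread between libraries that could be technical repeats.

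BMP ligands are secreted dimers that bring together type I and type II receptors, and the type I receptor then phosphorylates Smad1, Smad5 and Smad9. These join Smad4 in the nucleus and switch on target genes, among them genes for inhibitors of the pathway. Outside the cell, Noggin and Chordin bind the ligands and keep them from their receptors, while proteases of the Tolloid family cut Chordin and release them. In the frog ectoderm, high BMP activity favours epidermis, low activity favours neural plate, and the border between them, together with Wnt signals, gives rise to the neural crest.

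Libraries a, b and c held 35784464, 36618892 and 35187635 gene reads after K02288/CHIR and 43155031, 37299139 and 33706389 after DMSO. The summed level of the neural crest markers was 101555 to 114378 normalized counts in K02288/CHIR libraries and 641 to 900 in DMSO libraries, and 17 of 18 were higher. Of the 18, 11 reached the mean of 10 normalized counts needed for a test through the K02288/CHIR libraries alone and had to differ. In such a case the filter fixes the direction of the difference between the group means, but not its size or its call. Among the 7 with a mean of at least 10 in both groups, 6 were higher. Epidermal markers summed to 35137 to 202614 normalized counts in K02288/CHIR libraries and 782219 to 974528 in DMSO libraries, with 11 of 12 lower. Markers of multiciliated cells (291 to 2013 against 32655 to 38203) and of ionocytes (230 to 1089 against 29956 to 40426) were lower for 11 of 11 and 8 of 8 homeologs. Of these, tekt2.L reached the mean through the DMSO libraries alone and had to differ. Neural plate markers summed to 4606 to 8337 in K02288/CHIR libraries and 1103 to 1370 in DMSO libraries, and 4 of 7 tested homeologs were higher, those of ncam1 and tubb2b, with 0 lower. Of the 4, tubb2b.S reached the mean through the K02288/CHIR libraries alone and had to differ. The groups overlapped for sox2.L, sox3.L and sox3.S, which did not pass. Most of the K02288/CHIR sum was tubb2b.L, with 3305, 4093 and 5377 normalized counts in libraries a, b and c. K02288/CHIR library a had the highest sum among its group for the epidermal, multiciliated and ionocyte lists (202614, 2013 and 1089). On the first principal component, with 80.8% of the variance, this library lay at 106, libraries b and c at 187 and 196, and the DMSO libraries at -170 to -156. Markers of paraxial mesoderm and muscle summed to 12.3 to 98.7 in K02288/CHIR libraries and 19.8 to 231 in DMSO libraries. Those of endoderm summed to 203 to 436 and 127 to 278. The DMSO libraries differed among themselves in msgn1.L, with 8.27, 100 and 0 in a, b and c. The groups thus differed in cell type markers as well as in treatment, and in bulk RNA a loss of cells of a type cannot be told apart from less RNA per cell. The part of these markers in the changes below was not tested.

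Of the 54 homeologs, 46 had a mean of at least 10 normalized counts over the 6 libraries and were tested. The 8 others were bmp5.S and gdf7.S, which had no read, and bmp6.L, bmp6.S, gdf7.L, fst.L, fst.S and grem1.L. Nearest to this limit were fst.L with a mean of 6.0, not tested, and smad3.S with 12.7, tested. By limma with Benjamini-Hochberg adjustment over 22932 genes, 13 of the 46 were higher in K02288/CHIR explants, 23 were lower and 10 did not pass an adjusted p of 0.05. Among all tested genes 55.8% passed, 26.1% higher and 29.7% lower. Of the 46, 6 reached the mean through the K02288/CHIR libraries alone and 3 through the DMSO libraries alone. The group means of these had to differ in that direction, by a size the filter does not set. Among the 37 with a mean of at least 10 in both groups, 7 were higher, 20 were lower and 10 did not pass. Groups without overlap were found for 38 of the 46, against 64.9% of all tested genes. The median log2 fold was -0.63 over the 46 homeologs and 0.01 over all tested genes.

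The fitted change reached 2-fold in 10 of the higher and 20 of the lower homeologs. These included the 6 and 3 homeologs that reached the mean through a single group. The 2-fold cut was not counted over all tested genes, so these counts are not read as a trait of the pathway genes. Scaling by the upper quartile moved the median of all genes to 0.30 and gave 16 homeologs higher and 19 lower, and over all genes 8108 higher and 5594 lower, against 5995 and 6811. Below, levels are normalized counts, given for libraries a, b and c in that order, and folds are differences of log2(normalized count + 1), K02288/CHIR minus DMSO, with their standard error. Levels are not divided by gene length, so they are compared between groups and not between genes. The counts by role and by further list below stand against 26.1% higher and 29.7% lower among all tested genes.

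**Figure D1:**
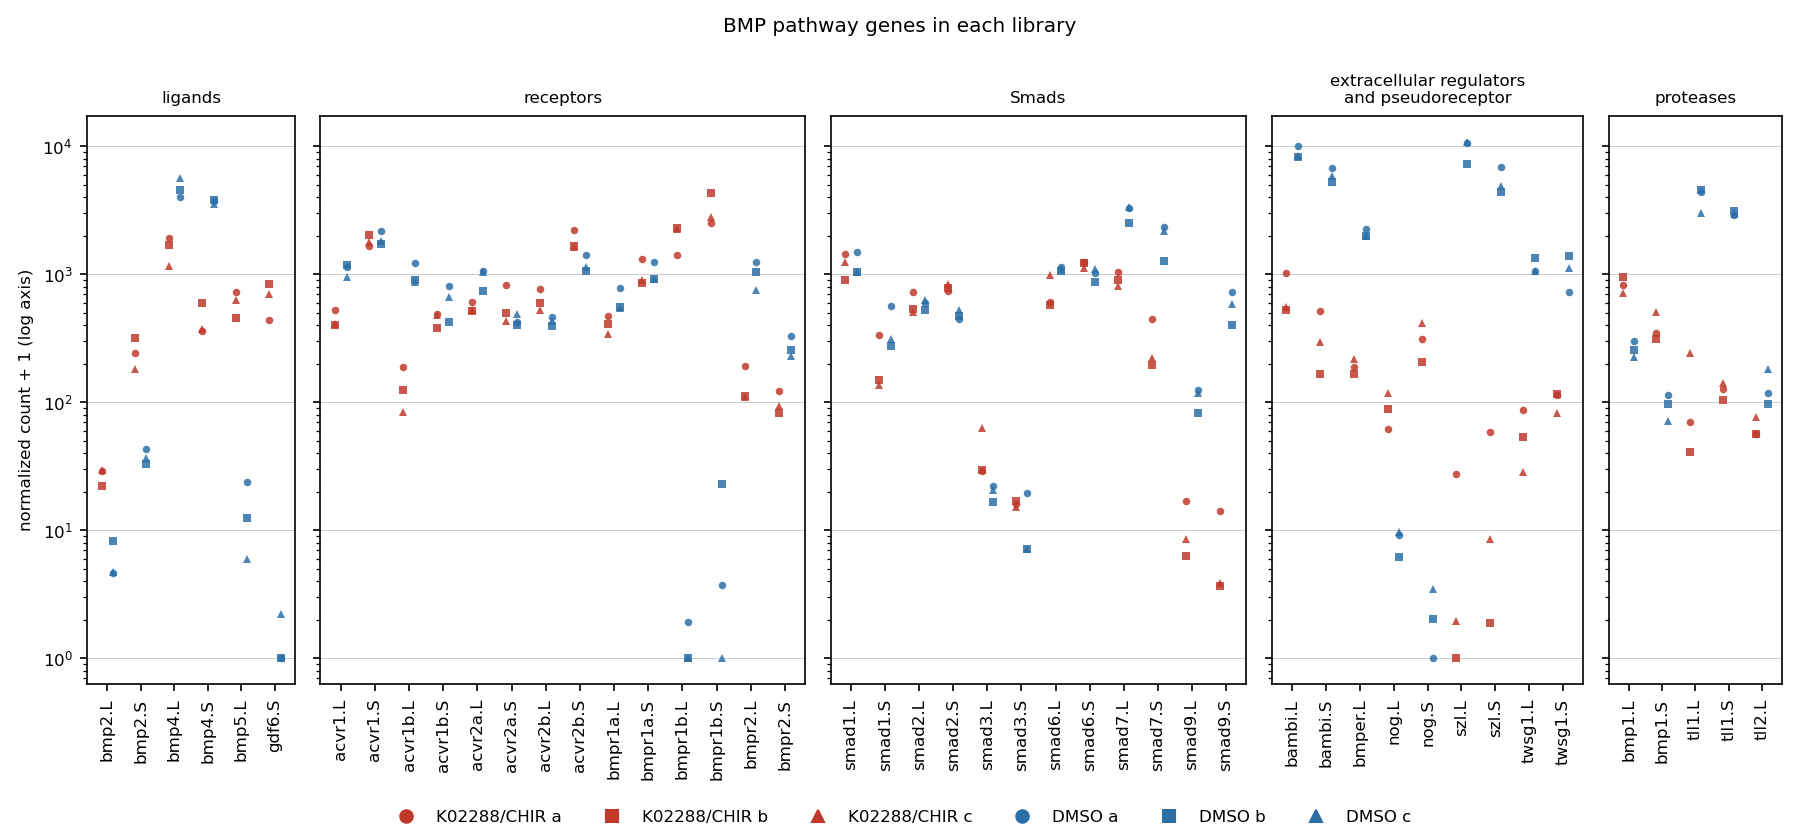
Level of each of the 46 tested homeologs in each library, as normalized count + 1 on a log axis, by role in the pathway; K02288/CHIR libraries stand left of DMSO libraries and a symbol shape marks the library letter. Wide gaps between the groups are seen for bmpr1b, gdf6.S and nog.S, high in K02288/CHIR explants, and for szl and smad9.S, high in DMSO explants.

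The ligand genes changed in both directions: bmp4, a ligand gene of the ventral and epidermal ectoderm, was lower, and bmp2, bmp5 and gdf6 were higher. All 6 tested homeologs passed, 4 higher and 2 lower, with a median log2 fold of 2.46. That median leaves out the bmp7 copies, which fell outside the rule and were lower where tested. bmp2.L and gdf6.S reached the mean through the K02288/CHIR libraries alone and had to differ. Of the 4 with a mean of at least 10 in both groups, 2 were higher and 2 lower. Summed over all 11 listed ligand homeologs, normalized counts were 3070 to 3944 in K02288/CHIR libraries and 7792 to 9286 in DMSO libraries. In DMSO libraries nearly all of this sum was bmp4. It also leaves out the bmp7 copies, with DMSO means of 3331 for bmp7.1.S, 5447 for bmp7.1.L and 2333 for bmp7.2.L, so it is not a total ligand level. bmp4.S had 357, 598 and 370 normalized counts in K02288/CHIR libraries and 3714, 3796 and 3548 in DMSO libraries. bmp4.L had 1924, 1703 and 1155 in K02288/CHIR libraries and 4008, 4553 and 5686 in DMSO libraries. Both homeologs were lower in every treated library, and the groups did not overlap. The log2 fold was -3.10 ± 0.21 for bmp4.S (limma adjusted p = 0.000122) and -1.59 ± 0.23 for bmp4.L (0.00125).

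bmp2, whose product is the closest relative of BMP4, moved the other way at a lower count. bmp2.S had 240, 315 and 182 normalized counts in K02288/CHIR libraries and 42.2, 32.1 and 35.8 in DMSO libraries, a log2 fold of 2.68 ± 0.30 (limma adjusted p = 0.000479). bmp2.L had 28.3, 21.3 and 28.6 in K02288/CHIR libraries and 3.67, 7.25 and 3.71 in DMSO libraries, a log2 fold of 2.25 ± 0.46 (limma adjusted p = 0.00582). Each treated library was above every DMSO library for both homeologs.

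The other 2 ligand genes that rose, bmp5 and gdf6, were low or near 0 in DMSO explants. bmp5, known for its role in skeletal and cartilage development in mice, was read only from the L homeolog. bmp5.L had 729, 454 and 629 normalized counts in K02288/CHIR libraries and 23.0, 11.4 and 4.94 in DMSO libraries, a log2 fold of 5.62 ± 0.52 (limma adjusted p = 0.000271). Its ratio of means was 46.1, and 74.0 without DMSO library a, the highest of the DMSO libraries. gdf6, a BMP family ligand gene active at the edge of the neural plate and in the eye of frog embryos, was listed as gdf6.S only. gdf6.S had 441, 845 and 703 normalized counts in K02288/CHIR libraries and 0, 0 and 1.24 in DMSO libraries (limma adjusted p = 7.39e-05). In reads these were 2155 in K02288/CHIR libraries and 1 in DMSO libraries, a ratio of 1908 with a 95% exact interval of 342 to 75410 that covers counting error only. The ratio was 1183 (212 to 46740) without DMSO library a and 1265 (227 to 49988) without b. Without DMSO library c, which held that read, gdf6.S was at least 456-fold higher, against a floor of 3 reads over the DMSO group. bmp6 and gdf7 had few reads in either group: 1 read in K02288/CHIR and 2 in DMSO libraries for bmp6.L, 4 and 4 for bmp6.S, and 14 and 2 for gdf7.L.

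Among receptor genes the largest difference was in bmpr1b, a type I receptor gene that was near 0 in DMSO explants and abundant in K02288/CHIR explants. Of 14 tested receptor homeologs 4 were higher, 6 lower and 4 did not pass, with a median log2 fold of -0.25. Both bmpr1b homeologs reached the mean through the K02288/CHIR libraries alone and had to differ. Among the 12 others, 2 were higher, 6 lower and 4 did not pass. bmpr1b.L had 1400, 2305 and 2241 normalized counts in K02288/CHIR libraries and 0.918, 0 and 0 in DMSO libraries (limma adjusted p = 5.18e-05). In reads these were 6428 in K02288/CHIR libraries and 1 in DMSO libraries, a ratio of 5692 (95% exact interval 1021 to 224867). The ratio was 3773 (677 to 149062) without DMSO library b. Without DMSO library a, which held that read, bmpr1b.L was at least 1176-fold higher against the floor of 3 reads, which is not a confidence limit. bmpr1b.S had 2509, 4313 and 2803 normalized counts in K02288/CHIR libraries and 2.76, 21.8 and 0 in DMSO libraries, a log2 fold of 9.47 ± 1.03 (limma adjusted p = 0.000458). Most of its DMSO reads were in library b, 21 of 24. Without that library the ratio of reads was 2045 (95% exact interval 700 to 9918), against 386 with it.

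bmpr1a encodes the type I receptor most closely related to the bmpr1b product. bmpr1a.S had 1305, 849 and 908 normalized counts in K02288/CHIR libraries and 1241, 922 and 916 in DMSO libraries, and the groups overlapped. Its log2 fold was -0.02 ± 0.22 (limma adjusted p = 0.946). bmpr1a.L had 472, 410 and 339 in K02288/CHIR libraries and 782, 551 and 542 in DMSO libraries, a log2 fold of -0.61 ± 0.22 just past the threshold (limma adjusted p = 0.0472). That call was lost in 8 of 13 alternative settings, among them the removal of any library but K02288/CHIR a, with limma adjusted p from 0.0194 to 0.217 over all settings.

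acvr1, a further type I receptor gene of the BMP branch, fell in the L homeolog. acvr1.L had 523, 402 and 410 normalized counts in K02288/CHIR libraries and 1148, 1190 and 947 in DMSO libraries, a log2 fold of -1.30 ± 0.17 (limma adjusted p = 0.000994). acvr1.S had 1661, 2013 and 1791 in K02288/CHIR libraries and 2173, 1722 and 1808 in DMSO libraries, which overlapped (log2 fold -0.06 ± 0.14, limma adjusted p = 0.755). acvr1b encodes the type I receptor for activin and Nodal and followed the same pattern. acvr1b.L had 189, 123 and 83.0 normalized counts in K02288/CHIR libraries and 1230, 901 and 872 in DMSO libraries, a log2 fold of -2.98 ± 0.32 (limma adjusted p = 0.000451). acvr1b.S had 485, 382 and 482 in K02288/CHIR libraries and 807, 419 and 662 in DMSO libraries (log2 fold -0.44 ± 0.27, limma adjusted p = 0.196). It passed only without DMSO library b (limma adjusted p = 0.0371, of a range of 0.0371 to 0.637).

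The type II receptor genes did not move together. bmpr2, whose product is selective for BMPs, was lower in both homeologs. bmpr2.L had 192, 110 and 108 normalized counts in K02288/CHIR libraries and 1247, 1041 and 750 in DMSO libraries, a log2 fold of -2.90 ± 0.30 (limma adjusted p = 0.000395). bmpr2.S had 121, 81.8 and 92.5 in K02288/CHIR libraries and 330, 254 and 228 in DMSO libraries, a log2 fold of -1.45 ± 0.26 (limma adjusted p = 0.00304). Genes of the activin type II receptors, acvr2a and acvr2b, whose products also bind BMPs, changed by less than 2-fold. acvr2a.L was lower at 512 to 609 normalized counts in K02288/CHIR libraries and 740 to 1059 in DMSO libraries (log2 fold -0.77 ± 0.19, limma adjusted p = 0.012). acvr2a.S overlapped at 432 to 829 in K02288/CHIR libraries and 399 to 485 in DMSO libraries (log2 fold 0.38 ± 0.26, limma adjusted p = 0.263). Upper quartile scaling ended the first call (adjusted p = 0.0534, range 0.00335 to 0.0534) and let the other pass, higher (0.0462, range 0.0462 to 0.681).

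Both acvr2b homeologs were slightly higher. acvr2b.S had 2202, 1656 and 1642 normalized counts in K02288/CHIR libraries and 1407, 1068 and 1145 in DMSO libraries (log2 fold 0.60 ± 0.18, limma adjusted p = 0.0247). acvr2b.L had 766, 595 and 521 in K02288/CHIR libraries and 461, 390 and 427 in DMSO libraries (log2 fold 0.54 ± 0.19, limma adjusted p = 0.0466). Neither call was firm. That of acvr2b.S was lost without DMSO library b or c (limma adjusted p = 0.0813 and 0.0732, range 0.003 to 0.0813). That of acvr2b.L was lost in 7 of 13 settings, among them the removal of any library but K02288/CHIR c (range 0.00562 to 0.133).

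**Figure D2:**
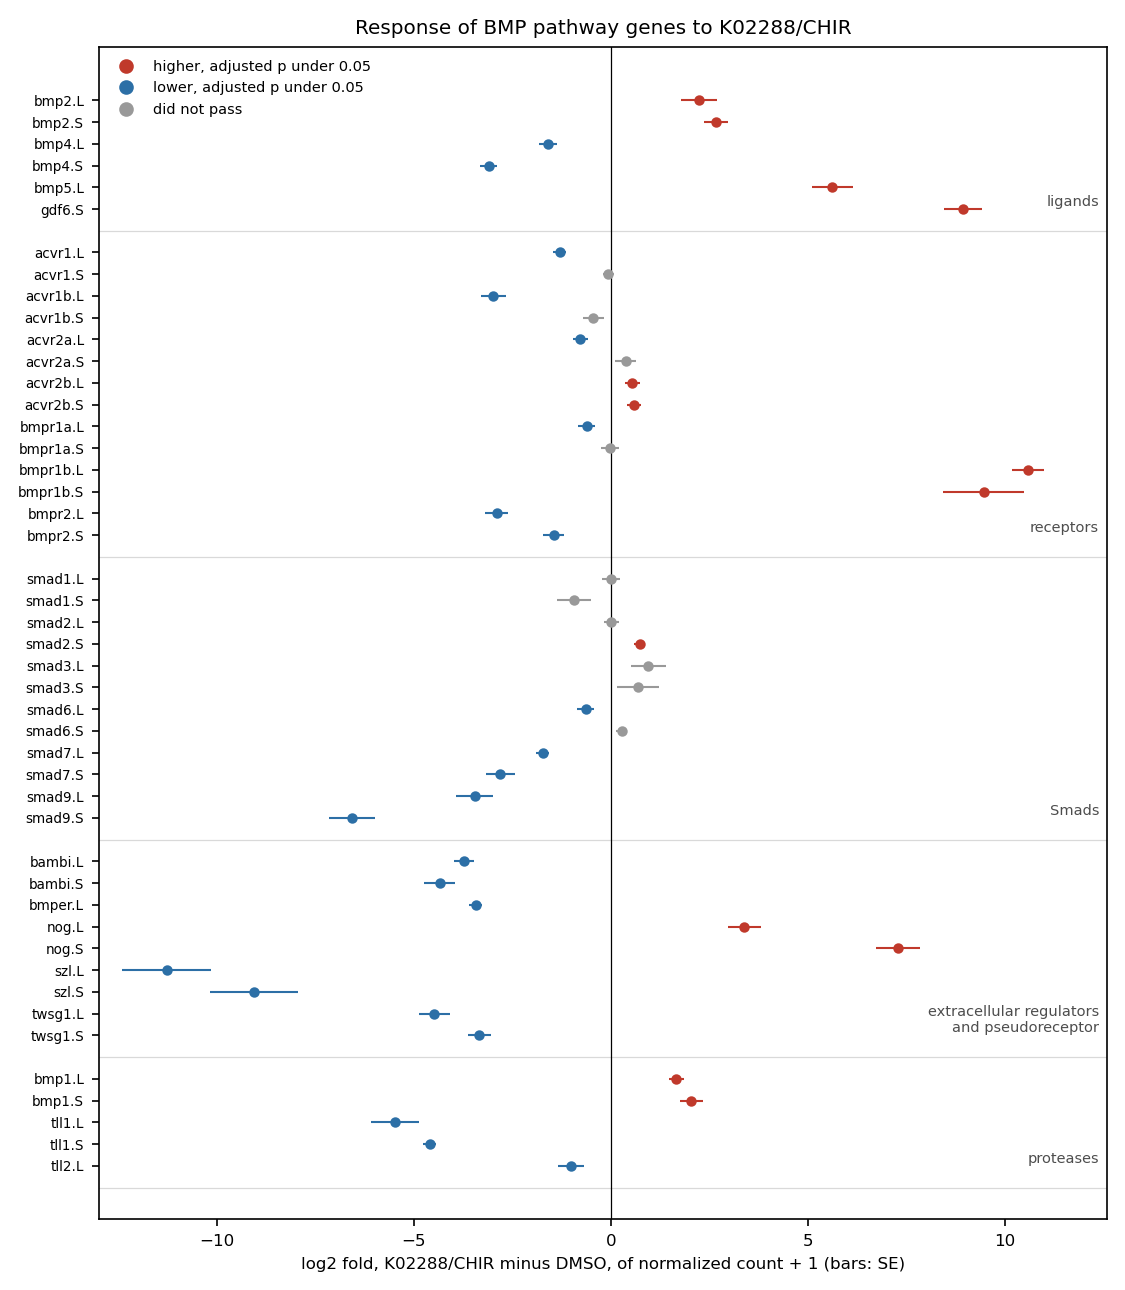
Log2 fold of each tested homeolog, K02288/CHIR minus DMSO, of normalized count + 1; points are the fitted values, bars their standard errors and colours the limma call. The folds run from -11.28 for szl.L to 10.60 for bmpr1b.L, and several genes have 1 homeolog that passed and 1 that did not.

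Among the Smad genes, those for the receptor-activated smad9 and the inhibitory smad7 fell by the most. Of 12 tested homeologs 1 was higher, 5 were lower and 6 did not pass, with a median log2 fold of -0.32. Both smad9 homeologs reached the mean through the DMSO libraries alone and had to differ. Among the 10 others, 1 was higher, 3 were lower and 6 did not pass. Smad9 is phosphorylated by BMP receptors, as Smad1 is. smad9.S had 13.2, 2.67 and 2.86 normalized counts in K02288/CHIR libraries and 726, 400 and 585 in DMSO libraries, a log2 fold of -6.57 ± 0.58 (limma adjusted p = 0.000237). Its DMSO mean was 91.4 times the K02288/CHIR mean, and 206 times it without K02288/CHIR library a, which held most of the treated reads. smad9.L had 16, 5.34 and 7.63 in K02288/CHIR libraries and 124, 80.8 and 117 in DMSO libraries, a log2 fold of -3.45 ± 0.47 (limma adjusted p = 0.00104).

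smad1 encodes the related effector of the same receptors, and neither homeolog passed. smad1.L had 1442, 896 and 1247 normalized counts in K02288/CHIR libraries and 1484, 1041 and 1041 in DMSO libraries (log2 fold 0.00 ± 0.23, limma adjusted p = 0.999). smad1.S had 335, 148 and 135 in K02288/CHIR libraries and 568, 273 and 309 in DMSO libraries, which overlapped in library a (log2 fold -0.94 ± 0.43, limma adjusted p = 0.103). In each letter the K02288/CHIR value of smad1.S was below the DMSO value of the same letter, and with the letter as a replicate block it passed, lower (limma adjusted p = 0.0098). It also passed without K02288/CHIR library a (adjusted p = 0.0136, range over all settings 0.0098 to 0.287).

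smad7 and smad6 encode inhibitory Smads, which BMP and TGF-beta signals induce and which hold the pathway back. smad7.L had 1047, 906 and 806 normalized counts in K02288/CHIR libraries and 3297, 2530 and 3329 in DMSO libraries, a log2 fold of -1.73 ± 0.17 (limma adjusted p = 0.000311). smad7.S had 446, 193 and 222 in K02288/CHIR libraries and 2354, 1278 and 2173 in DMSO libraries, a log2 fold of -2.80 ± 0.37 (limma adjusted p = 0.000977). Both smad7 homeologs were lower in every treated library. smad6.L had 606, 569 and 983 in K02288/CHIR libraries and 1129, 1051 and 1088 in DMSO libraries (log2 fold -0.64 ± 0.22, limma adjusted p = 0.0454). That call was lost in 9 of 13 settings, among them edgeR (0.0719), DESeq2 (0.0714) and the removal of any library but K02288/CHIR c (adjusted p 0.00602 to 0.237 over all settings). smad6.S had 1251, 1233 and 1126 in K02288/CHIR libraries and 1013, 871 and 1092 in DMSO libraries and did not pass (log2 fold 0.28 ± 0.14, limma adjusted p = 0.126). It passed, higher, under upper quartile scaling alone (adjusted p = 0.00974, range 0.00974 to 0.339).

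smad2 and smad3 serve the activin and Nodal branch. smad2.S had 744, 784 and 843 normalized counts in K02288/CHIR libraries and 443, 470 and 520 in DMSO libraries, a log2 fold of 0.73 ± 0.14 (limma adjusted p = 0.0051). Among the Smad homeologs within the rule it alone passed as higher, and the numbered copy smad6.2.L, outside the rule, is given below. smad2.L overlapped at 510 to 732 in K02288/CHIR libraries and 520 to 631 in DMSO libraries (log2 fold 0.01 ± 0.19, limma adjusted p = 0.964). smad3 was low in both groups, with 28.3, 28.5 and 62.0 for smad3.L in K02288/CHIR libraries and 21.1, 15.5 and 19.8 in DMSO libraries (log2 fold 0.95 ± 0.44, limma adjusted p = 0.106). smad3.S had 14.3 to 16 in K02288/CHIR libraries and 6.18 to 18.4 in DMSO libraries (log2 fold 0.69 ± 0.54, limma adjusted p = 0.313). Every treated value of smad3.L was above every DMSO value, and the smad3.S groups overlapped. smad3.L passed under upper quartile scaling, with an adjusted p of 0.05 after rounding (range 0.05 to 0.296).

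The extracellular regulators held the deepest falls of the set. Of 9 tested homeologs 7 were lower, 2 were higher and 0 did not pass, with a median log2 fold of -3.72. Those that fell were szl, bambi, bmper and twsg1, and those that rose were the homeologs of nog. The counts and the median leave out the chrd copies, which fell outside the rule. Of those copies only chrd.1.S was tested, and it was higher. Both nog homeologs reached the mean through the K02288/CHIR libraries alone and szl.L through the DMSO libraries alone, so these had to differ. Among the 6 others, 0 were higher and 6 were lower. In the frog gastrula, szl, bambi, bmper and twsg1 are expressed on the ventral side where BMP activity is high, and nog is expressed dorsally where it is low.

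szl encodes Sizzled, a secreted frizzled-related protein that inhibits Tolloid proteases and so protects Chordin. szl.L had 26.4, 0 and 0.954 normalized counts in K02288/CHIR libraries and 10568, 7224 and 10868 in DMSO libraries, the largest fall of the 46 (log2 fold -11.28 ± 1.13, limma adjusted p = 0.000345). szl.S had 57.5, 0.889 and 7.63 in K02288/CHIR libraries and 6825, 4383 and 4858 in DMSO libraries (log2 fold -9.06 ± 1.11, limma adjusted p = 0.000713). Nearly all treated reads of both homeologs came from K02288/CHIR library a, 28 of 29 for szl.L and 61 of 70 for szl.S. Without it the DMSO level of szl.S was 1257 times the K02288/CHIR mean, against 243 times with it. For szl.L the ratio of reads became 20699 (95% exact interval 3715 to 817608), against 1062, with 1 treated read left.

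bambi encodes a receptor-like protein without a kinase that blocks signalling at the membrane. bambi.L had 1029, 529 and 554 normalized counts in K02288/CHIR libraries and 10015, 8265 and 8403 in DMSO libraries, a log2 fold of -3.72 ± 0.26 (limma adjusted p = 0.000129). bambi.S had 517, 165 and 292 in K02288/CHIR libraries and 6782, 5208 and 5868 in DMSO libraries, a log2 fold of -4.34 ± 0.39 (limma adjusted p = 0.000238). Both homeologs kept their highest treated level in library a.

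bmper (crossveinless 2) and twsg1 (twisted gastrulation) encode secreted proteins that bind BMPs and Chordin and can inhibit or promote signalling. bmper.L, the only bmper homeolog listed, had 189, 166 and 217 normalized counts in K02288/CHIR libraries and 2253, 1970 and 1972 in DMSO libraries, a log2 fold of -3.43 ± 0.16 (limma adjusted p = 7.18e-05). All of its treated values were below all of its DMSO values. twsg1.L had 85.8, 52.5 and 27.7 in K02288/CHIR libraries and 1067, 1327 and 1051 in DMSO libraries, a log2 fold of -4.48 ± 0.40 (limma adjusted p = 0.000236). twsg1.S had 114, 115 and 81.1 in K02288/CHIR libraries and 732, 1393 and 1118 in DMSO libraries, a log2 fold of -3.34 ± 0.29 (limma adjusted p = 0.000211).

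nog encodes Noggin, which binds BMPs directly and keeps them from their receptors. nog.S had 312, 207 and 416 normalized counts in K02288/CHIR libraries and 0, 1.04 and 2.47 in DMSO libraries (limma adjusted p = 0.00016). In reads these were 1000 in K02288/CHIR libraries and 3 in DMSO libraries, a ratio of 295 (95% exact interval 101 to 1434), or 635 (114 to 25114) without DMSO library c and 183 (62.4 to 889) without DMSO library a. nog.L had 60.3, 87.2 and 117 normalized counts in K02288/CHIR libraries and 8.27, 5.18 and 8.65 in DMSO libraries, a log2 fold of 3.39 ± 0.42 (limma adjusted p = 0.000719). Each treated library exceeded every DMSO library for both homeologs. fst, the gene for the activin and BMP antagonist Follistatin, and grem1, for Gremlin, stayed below the mean needed for a test. fst.L had 1.88, 6.23 and 23.8 in K02288/CHIR libraries and 0.918, 3.11 and 0 in DMSO libraries, and fst.S had 2 reads in K02288/CHIR libraries and 0 in DMSO libraries. grem1.L had 2.83, 10.7 and 11.4 in K02288/CHIR libraries and 2.76, 3.11 and 2.47 in DMSO libraries.

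Noggin is also a product of the dorsal organizer and notochord, so markers of those tissues were read beside it. Of 13 marker homeologs 4 could be tested and 2 were higher, cer1.S and lhx1.L. Both reached the mean through the K02288/CHIR libraries alone and had to differ. The summed level was 473 to 2094 normalized counts in K02288/CHIR libraries and 32.1 to 543 in DMSO libraries. Most of the K02288/CHIR sum was cer1.S, with 1824, 280 and 745 in libraries a, b and c. In DMSO libraries a and b most of the sum was tbxt. Among the list, shh and foxa4 were at or near 0 and gsc was low: shh.L had no read, shh.S had 0 reads in K02288/CHIR libraries and 3 in DMSO libraries, foxa4.L had 1 and 0, and foxa4.S had 1 and 2. gsc had 8 reads for L and 11 for S in K02288/CHIR libraries and 0 in DMSO libraries. tbxt, a gene of the notochord and the early mesoderm, was read in both groups, and neither homeolog passed. tbxt.S had 211, 168 and 307 normalized counts in K02288/CHIR libraries and 135, 255 and 14.8 in DMSO libraries. tbxt.L had 0, 1.78 and 0.954 in K02288/CHIR libraries and 128, 270 and 0 in DMSO libraries. The part of these markers in the level of nog was not tested.

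The protease genes split by family member. bmp1 was higher and the tolloid-like genes were lower, and all 5 tested homeologs passed, with a median log2 fold of -1.02. bmp1 encodes a procollagen C-proteinase that also cuts Chordin. bmp1.L had 819, 946 and 711 normalized counts in K02288/CHIR libraries and 302, 256 and 224 in DMSO libraries, a log2 fold of 1.66 ± 0.19 (limma adjusted p = 0.000568). bmp1.S had 347, 309 and 505 in K02288/CHIR libraries and 114, 95.3 and 70.4 in DMSO libraries, a log2 fold of 2.04 ± 0.29 (limma adjusted p = 0.0012).

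tll1 and tll2 encode tolloid-like proteases, which cut Chordin. tll1.S had 125, 103 and 141 normalized counts in K02288/CHIR libraries and 2887, 3099 and 2951 in DMSO libraries, a log2 fold of -4.60 ± 0.17 (limma adjusted p = 5.02e-05). In the authors' deposited table tll1.S stood at rank 3 of all genes by adjusted p (7.65e-104), with a log2 fold of -4.60 ± 0.21. tll1.L had 69.7, 40.0 and 241 in K02288/CHIR libraries and 4425, 4567 and 3003 in DMSO libraries, a log2 fold of -5.47 ± 0.61 (limma adjusted p = 0.000499). Its treated value was highest in library c, and without that library the DMSO mean was 72.9 times the treated mean, against 34.2 times with it. tll2.L, the only tll2 homeolog listed, had 55.6, 55.1 and 76.3 in K02288/CHIR libraries and 117, 95.3 and 180 in DMSO libraries (log2 fold -1.02 ± 0.33, limma adjusted p = 0.0337). The tll2.L call was lost under upper quartile scaling (0.0947) and without K02288/CHIR a (0.063) or b (0.0829) or DMSO a (0.0727) or c (0.11), with adjusted p from 0.0127 to 0.11 over all settings.

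Several of these genes changed in 1 homeolog more than in the other. The table held 25 pairs of L and S homeologs, and 21 had both above the mean filter. For each the difference log2(L + 1) minus log2(S + 1) was compared between groups, in a limma fit over 5796 pairs of all genes. Of the 21 pairs 14 passed, against 38% of all pairs, and the median absolute difference was 1.07 for the 21 and 0.61 for all pairs. In 10 of the 14 the S homeolog had the more positive response and in 4 the L homeolog did. In 13 pairs both homeologs were called in the same direction, in 5 only L was called, in 1 only S and in 2 neither, and in 0 pairs were they called in opposite directions. Neither split was counted over all pairs, so they are not read as a trait of the pathway genes.

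The pair with the largest difference was nog, where S rose further than L (difference -3.90 ± 0.64, limma adjusted p = 0.00448). The L homeolog made up 16.2%, 29.6% and 22% of nog counts in K02288/CHIR libraries and 100%, 83.3% and 77.8% in DMSO libraries, where few reads stand behind the share. smad9 showed the reverse, with 54.8%, 66.7% and 72.7% from L in K02288/CHIR libraries and 14.6%, 16.8% and 16.7% in DMSO libraries (difference 3.12 ± 0.42, limma adjusted p = 0.00231). Its treated shares rest on 31 reads of L and 20 of S. For bmp4 the S homeolog fell further, and L made up 84.3%, 74.0% and 75.7% in K02288/CHIR libraries and 51.9%, 54.5% and 61.6% in DMSO libraries (difference 1.51 ± 0.27, limma adjusted p = 0.00615).

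Among receptors the L homeolog had the lower response in each pair that passed, and the acvr2b and bmpr1b pairs did not pass. Directions were not counted over all pairs, so this is not read as a trait of the receptor genes. For acvr1b, L made up 28.1%, 24.3% and 14.7% of counts in K02288/CHIR libraries and 60.4%, 68.2% and 56.8% in DMSO libraries (difference -2.54 ± 0.35, limma adjusted p = 0.00253). The difference was -1.45 ± 0.24 for bmpr2 (0.00493), -1.24 ± 0.21 for acvr1 (0.0052), -1.14 ± 0.24 for acvr2a (0.0107) and -0.59 ± 0.17 for bmpr1a (0.034). In the DMSO libraries L made up 76.6% to 80.4% of bmpr2 counts, 65.0% to 71.5% of acvr2a counts and 34.4% to 40.9% of acvr1 counts. Whether the direction goes with the share of a copy was not tested, and counts of L and S are not divided by gene length. szl (difference -2.22 ± 0.39, adjusted p = 0.00545) and twsg1 (-1.14 ± 0.35, 0.0407) also fell further in L. K02288/CHIR libraries b and c held 0 and 1 reads of szl.L and 1 and 8 of szl.S, so few treated reads stand behind the szl difference. The remaining pairs that passed were smad6 (-0.93 ± 0.26, 0.0305), smad2 (-0.72 ± 0.23, 0.0444), smad7 (1.07 ± 0.27, 0.0209) and smad1 (0.94 ± 0.31, 0.048).

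Of the 14, the calls of bmpr1a, smad1, smad2, smad6, smad7 and twsg1 depended on single libraries, and the highest adjusted p was 0.0735 for smad7, 0.0895 for smad6, 0.103 for bmpr1a, 0.13 for smad2, 0.135 for twsg1 and 0.146 for smad1. Leaving out any DMSO library ended the calls of bmpr1a, smad1, smad2, smad6 and twsg1, and leaving out DMSO a or c ended that of smad7. Among K02288/CHIR libraries, leaving out a ended the calls of bmpr1a and smad6, b those of smad1, smad2, smad6 and twsg1, and c those of bmpr1a, smad1, smad2, smad7 and twsg1. The smad1 pair was also lost without the mean filter (0.054). The 7 pairs that did not pass were acvr2b, bambi, bmp1, bmp2, bmpr1b, smad3 and tll1. Of these, bambi was near the threshold (difference 0.62 ± 0.21, limma adjusted p = 0.0571) and passed with the replicate block (0.0311) and without K02288/CHIR library a (0.0453), with a range of 0.0311 to 0.148. tll1 passed without K02288/CHIR library c (adjusted p = 0.0153, range 0.0153 to 0.536, against 0.229 with it).

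**Figure D3:**
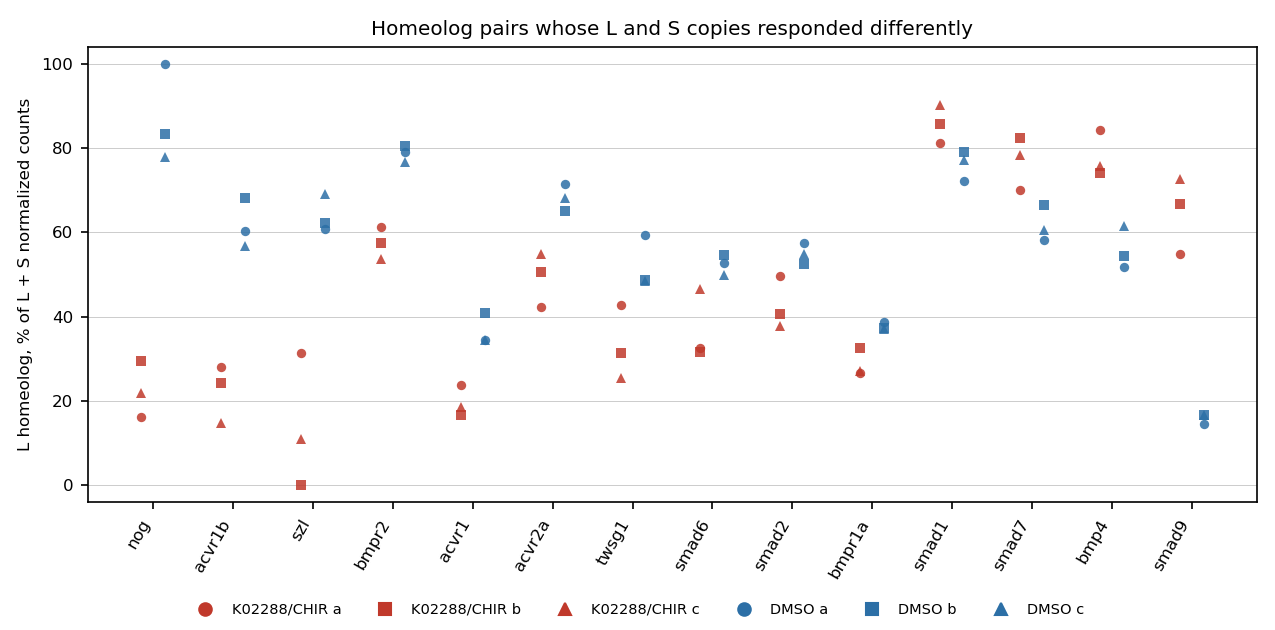
Share of the L homeolog in the summed L and S normalized counts, in percent, for the 14 pairs that passed the test of the difference; each symbol is a library, with K02288/CHIR left of DMSO and pairs ordered by the difference. The share is below that of DMSO libraries for nog to bmpr1a and above it for smad1 to smad9.

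Copies of the pathway genes that carry a further number were outside the rule and include those of bmp7, smad4 and chrd. Of 13 such homeologs 9 could be tested, of which 2 were higher, 5 lower and 2 did not pass. Of these, chrd.1.S reached the mean through the K02288/CHIR libraries alone and had to differ. The ligand gene bmp7, whose product pairs with BMP4, was lower in each tested copy. bmp7.1.S had 66.9, 4.45 and 6.68 normalized counts in K02288/CHIR libraries and 3628, 3596 and 2769 in DMSO libraries, a log2 fold of -7.87 ± 0.89 (limma adjusted p = 0.000527). Without K02288/CHIR library a the DMSO mean of bmp7.1.S was 599 times the treated mean, against 128 times with it. bmp7.1.L had 951, 329 and 298 in K02288/CHIR libraries and 6111, 4702 and 5527 in DMSO libraries (log2 fold -3.57 ± 0.43, limma adjusted p = 0.000658), a ratio of 10.4 that became 17.4 without K02288/CHIR library a. bmp7.2.L had 260, 238 and 449 in K02288/CHIR libraries and 1896, 3066 and 2037 in DMSO libraries (log2 fold -2.91 ± 0.30, limma adjusted p = 0.000371).

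chrd, the gene for Chordin, was read almost only in treated explants. chrd.1.S had 148, 377 and 571 normalized counts in K02288/CHIR libraries and 0.918, 0 and 0 in DMSO libraries (limma adjusted p = 0.000156). In reads these were 1180 in K02288/CHIR libraries and 1 in DMSO libraries, a ratio of 1045 (95% exact interval 187 to 41307). With each DMSO library left out, the ratio was 693 (124 to 27382) without b and 750 (134 to 29630) without c, and the gene was at least 216-fold higher without a. chrd.1.L had 47 reads in K02288/CHIR libraries and 0 in DMSO libraries, at least 13.9-fold higher, and did not reach the mean for a test. smad4, the shared partner of all receptor-activated Smads, differed between its copies. smad4.1.L and smad4.1.S did not pass (log2 folds 0.26 ± 0.15 and 0.47 ± 0.35, limma adjusted p = 0.17 and 0.292), although smad4.1.L passed under upper quartile scaling (0.0147) and smad4.1.S without DMSO library a (0.0413). smad4.2.L was lower at 36.8, 73.8 and 48.6 in K02288/CHIR libraries and 305, 173 and 259 in DMSO libraries (log2 fold -2.21 ± 0.36, limma adjusted p = 0.00209). smad4.2.S was also lower (log2 fold -1.12 ± 0.29, limma adjusted p = 0.0143), a call lost without K02288/CHIR library c (0.0511) or DMSO library a (0.0506). smad6.2.L rose, with 200, 268 and 470 in K02288/CHIR libraries and 108, 102 and 51.9 in DMSO libraries (log2 fold 1.81 ± 0.42, limma adjusted p = 0.00972).

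Known BMP target genes were read next to the pathway genes. Of 24 tested homeologs 15 were lower, 6 higher and 3 did not pass, with a median log2 fold of -2.21. Among all tested genes 29.7% were lower and 26.1% higher. Of the 24, 2 reached the mean through the DMSO libraries alone and had to differ. Among the 22 others, 6 were higher, 14 were lower and 2 did not pass. The inhibitor-of-differentiation genes id2 and id4 were lower in both homeologs, and id3 in S alone. id2.L had 1289, 695 and 1076 normalized counts in K02288/CHIR libraries and 8983, 7164 and 7401 in DMSO libraries (log2 fold -2.98 ± 0.24, limma adjusted p = 0.000174). The other folds were -3.38 ± 0.31 for id2.S, -4.04 ± 0.65 for id4.L and -1.76 ± 0.49 for id4.S, whose call was lost without DMSO library a (adjusted p = 0.0561) or b (0.0597). id3.L overlapped at 8844, 10571 and 9112 in K02288/CHIR libraries and 8790, 10487 and 8725 in DMSO libraries (log2 fold 0.03 ± 0.13, limma adjusted p = 0.873). id3.S was lower at 8595, 6005 and 6151 in K02288/CHIR libraries and 9954, 9488 and 10469 in DMSO libraries (log2 fold -0.55 ± 0.16, limma adjusted p = 0.0246). With upper quartile scaling id3.S no longer passed (0.159), nor with any library other than K02288/CHIR a left out (0.0512 to 0.086).

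Among the ventx genes, homeobox repressors of dorsal fate, ventx2.1 and ventx2.2 split between homeologs. ventx2.1.S had 849, 955 and 888 in K02288/CHIR libraries and 3375, 4551 and 4106 in DMSO libraries (log2 fold -2.15 ± 0.15, limma adjusted p = 0.000118). ventx2.2.L had 1804, 2014 and 1752 in K02288/CHIR libraries and 657, 923 and 396 in DMSO libraries and was higher (log2 fold 1.57 ± 0.30, limma adjusted p = 0.00398). The partner of each was called in the opposite direction. ventx2.1.L was higher at 1247, 2037 and 1906 in K02288/CHIR libraries and 598, 983 and 844 in DMSO libraries (limma adjusted p = 0.0104). ventx2.2.S was lower at 1038, 1758 and 1426 in K02288/CHIR libraries and 1977, 3945 and 2690 in DMSO libraries (limma adjusted p = 0.0244). ventx2.2.S did not pass with upper quartile scaling (0.0857), or without K02288/CHIR library c (0.0618) or DMSO library b (0.065) or c (0.0613). ventx1.1.S (-4.17 ± 0.47), ventx1.2.S (-3.88 ± 0.47) and ventx1.2.L (-2.27 ± 0.54) were lower too, and the DMSO mean of ventx1.1.S was 27.5 times the treated mean without K02288/CHIR library a, against 18.1 times with it. ventx1.1.L did not pass (-1.36 ± 0.63, limma adjusted p = 0.106), but was lower with the replicate block (0.0285) and without K02288/CHIR library a (0.00552).

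ventx3.2 was read almost only in DMSO explants. ventx3.2.S had 1 read in K02288/CHIR libraries and 193 in DMSO libraries (limma adjusted p = 0.0013), which in the DMSO libraries was 218 times the treated level (95% exact interval 38.7 to 8652). Without DMSO library b it was 129 times (22.5 to 5180), and without K02288/CHIR library b, which held the treated read, the treated level was at least 47.4-fold lower. ventx3.2.L had 1 read in K02288/CHIR libraries and 163 in DMSO libraries, where the normalized counts were 25.7, 140 and 0, and did not pass (limma adjusted p = 0.106). It passed, lower, by edgeR (0.0284), by DESeq2 (0.0272) and without DMSO library c (0.00584).

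The ectodermal transcription factor genes gata2 and gata3 fell in all 4 homeologs, with log2 folds of -4.26 ± 0.67 for gata2.L, -4.29 ± 0.67 for gata2.S, -5.03 ± 0.32 for gata3.L and -7.79 ± 0.93 for gata3.S. K02288/CHIR library a held more of gata3.S, 149 normalized counts, than libraries b and c with 8 and 20, and the DMSO libraries had 6131, 7239 and 6983. Without library a the DMSO mean was 484 times the treated mean for gata3.S, 34.5 times for gata2.L and 32.5 times for gata2.S, against 115, 13.5 and 14.4 times with it. The homeobox genes msx1 and msx2, BMP targets that also mark the neural plate border, were higher in all 4 homeologs, by log2 folds of 2.42 ± 0.18 for msx1.L and 2.03 ± 0.23 for msx1.S. msx2.S had 3350, 7084 and 5253 in K02288/CHIR libraries and 1349, 1144 and 1161 in DMSO libraries (log2 fold 2.04 ± 0.27, limma adjusted p = 0.000894), and msx2.L rose by 1.27 ± 0.26 (0.0056).

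Co-receptor genes rose as far as they passed: 6 of 7 tested homeologs were higher and 0 lower, with a median log2 fold of 1.47. rgma and neo1 encode a repulsive guidance molecule that binds BMPs and its receptor Neogenin. neo1.L had 2204, 2222 and 3209 normalized counts in K02288/CHIR libraries and 928, 842 and 939 in DMSO libraries (log2 fold 1.47 ± 0.18, limma adjusted p = 0.000676). rgma.L had 756, 1234 and 1018 in K02288/CHIR libraries and 219, 308 and 204 in DMSO libraries (log2 fold 2.03 ± 0.25, limma adjusted p = 0.00072), and neo1.S rose by 0.95 ± 0.12 (0.000898).

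Other extracellular BMP modulators went both ways, with 5 of 14 tested homeologs higher, 3 lower and 6 that did not pass (median log2 fold 0.79). Of the 14, 3 reached the mean through the K02288/CHIR libraries alone, cer1.S among them, and 2 through the DMSO libraries alone, fstl3.S among them. These had to differ. Among the 9 with a mean of at least 10 in both groups, 3 were higher, 1 was lower and 5 did not pass. kcp.L, the gene for Kielin/Chordin-like protein, had 229, 377 and 372 normalized counts in K02288/CHIR libraries and 24.8, 32.1 and 18.5 in DMSO libraries (log2 fold 3.64 ± 0.33, limma adjusted p = 0.000262). cer1.S, for the antagonist Cerberus, had 1824, 280 and 745 in K02288/CHIR libraries and 6.43, 7.25 and 16.1 in DMSO libraries (log2 fold 6.16 ± 0.70, limma adjusted p = 0.000531), and its ratio of means was 51.7 without K02288/CHIR library a, against 95.8 with it. fstl3.S, related to Follistatin, had 0 reads in K02288/CHIR libraries and 77 in DMSO libraries and was at least 29.0-fold lower, or at least 18.9-fold to 32.5-fold with a library left out. tsku.L, for the secreted protein Tsukushi, was lower at 1889, 825 and 1677 in K02288/CHIR libraries and 8115, 5134 and 6840 in DMSO libraries (log2 fold -2.26 ± 0.33, limma adjusted p = 0.00147).

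Intracellular regulators of Smads had a median log2 fold of 0.02, with 9 of 35 tested homeologs higher, 8 lower and 18 that did not pass. Over all tested genes 26.1% were higher and 29.7% lower, so these counts are not read as a trait of the list. Of the 35, 2 reached the mean through the K02288/CHIR libraries alone and had to differ. Among the 33 others, 7 were higher, 8 were lower and 18 did not pass. zeb2.S, for a Smad-binding repressor that is also active in neural crest, had 850, 1963 and 1289 normalized counts in K02288/CHIR libraries and 51.4, 42.5 and 37.1 in DMSO libraries (log2 fold 4.87 ± 0.33, limma adjusted p = 0.000115). znf423.L, for a zinc finger partner of BMP Smads, had 2067, 1478 and 1578 in K02288/CHIR libraries and 518, 537 and 476 in DMSO libraries (log2 fold 1.73 ± 0.17, limma adjusted p = 0.000312). nedd4l.S, for a ubiquitin ligase that acts on Smads, was lower at 450, 207 and 249 in K02288/CHIR libraries and 2335, 2317 and 2936 in DMSO libraries (log2 fold -3.13 ± 0.30, limma adjusted p = 0.000286). skil.L, for the Smad corepressor SnoN, fell (log2 fold -2.27 ± 0.43, limma adjusted p = 0.00426).

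**Figure D4:**
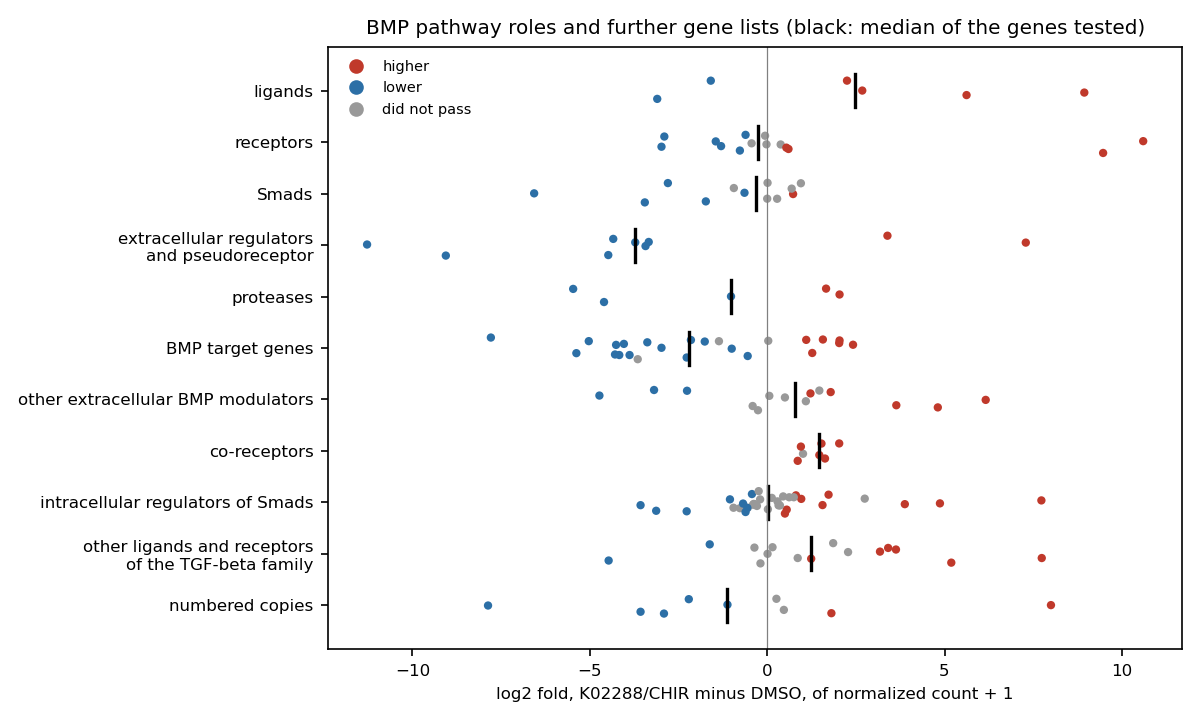
Log2 fold of each tested homeolog, K02288/CHIR minus DMSO, of normalized count + 1, by pathway role and further gene list; each point is a homeolog, coloured by its limma call, and black lines are the medians of the genes tested. The medians run from -3.72 for the extracellular regulators to 2.46 for the ligands. The ligand list leaves out the bmp7 copies, lower where tested, which stand under the numbered copies. The extracellular regulators leave out the chrd copies, of which only chrd.1.S was tested, and was higher. It also stands under the numbered copies.

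Among the lower homeologs, the level of K02288/CHIR library a often lay nearest to the DMSO libraries. Library a had the highest treated value for 16 of the 23 lower pathway homeologs (69.6%), against 64.6% of the 6811 lower genes of the whole table. Among the 13 higher homeologs the lowest treated value was spread over the libraries, 5 in a (38.5%), 4 in b and 4 in c. Over the 5995 higher genes of the whole table it was in library a for 45.4%. Without this library 12 pathway homeologs were higher and 22 lower, against 13 and 23 with it.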

How the data were processed

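Bulk RNA sequencing of 3 K02288/CHIR and 3 DMSO libraries was analysed from the deposited table, which holds, per the file headers, a normalized signal per gene for each library (here normalized counts), with the authors' mean, log2 fold change, standard error, Wald score, p-value and adjusted p-value. The submitters' processing notes name DESeq but no version of it. Which aligner, counting program and genome build were used is not given in the sources used here. Each deposited signal value is whole reads divided by a size factor: 100% of 184429 values above 0 gave whole reads within 0.01 reads, so reads were recovered. Left out were 5 summary rows, and 1 gene name broken over 2 cells was mended. Reads aligned to several places were 4.93% to 5.91% of reads in 5 libraries and 11.1% in DMSO library a, and reads of near-identical homeologs in this class are lost to both. Strand use in the counting is not stated.

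The test was limma 3.58.1 with trend (R 4.3.3) on log2(normalized count + 1), for genes whose mean over the 6 libraries reached 10, with Benjamini-Hochberg adjusted p under 0.05 over all genes tested; folds on this scale understate changes of low genes. Homeolog pairs were tested the same way on log2(L + 1) minus log2(S + 1). Alternatives were another pseudocount, no mean filter, 2 other scalings, a replicate block, edgeR 4.0.16 and DESeq2 1.42.0 on recovered reads, and each library left out. Both fits were run on simulated counts with large changes in well-read genes, the same dispersion for every gene and no pairing of libraries. That run does not show how well they find small changes or changes in low genes. Ratios of reads have exact 95% conditional intervals, and "at least" folds use 3 reads over the group at 0. The "at least" folds are not confidence limits. With all libraries the exact 95% lower limit was smaller: 23 for fstl3.S, 10.8 for chrd.1.L, 31.7 for nodal2.L and 26.4 for gdf3.S. For genes given an "at least" fold only with a library left out, it was also smaller than that fold. It was 342 for gdf6.S, 1021 for bmpr1b.L, 187 for chrd.1.S and 38.7 for ventx3.2.S.

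The column letters a, b and c occur in both groups, and nothing in the labels ties them to replicate numbers. Deviations from the group means correlated at 0.326, 0.402 and 0.319 for libraries with the same letter and at -0.228 to -0.0905 for other pairs, so the letters were taken to pair the libraries. Deviations cancel within each group, so the negative values are not separate evidence for the pairing. The main fit leaves the pairing out, and only the replicate block uses it.

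The members and all gene lists were chosen with earlier results of these data known. All members above the mean filter are named. Further lists contribute the 3 homeologs lowest in adjusted p, and at most 2 that passed in the opposite direction; BMP targets could be named in full. No sequences are printed. Some rows of the table were not analysed here. Tools for summaries and plots were Python 3.11.15, scipy 1.17.1 and matplotlib 3.10.9.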

Additional observations from a re-analysis of the deposited data

How the results depend on the processing

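Over 13 alternative settings 35 of the 46 tested homeologs kept their call and direction, and over 9 settings 13 of the 21 homeolog pairs did; the 11 and 8 others are named beside the results. No called fold changed sign. The number of receptor homeologs higher, 4, was 2 to 4 with a library left out, and 2 without DMSO library b or c. The number of Smad homeologs higher, 1, was 3 under upper quartile scaling. The number of pairs with a homeolog difference, 14, was 8 to 13 with a library left out, 8 without DMSO library a or c and 9 without DMSO library b, where fewer libraries enter the fit. Pathway homeologs called numbered 36 in the main setting, 31 to 35 with a library left out, 34 by edgeR and 35 by DESeq2. With the libraries paired by letter in a replicate block, 37 homeologs and 15 pairs were called; the added calls were smad1.S and the bambi pair, and the block changed no other call among the homeologs and pairs. Few reads stand behind smad9 and szl in treated explants, behind gdf6.S, bmpr1b, nog and bmp2.L in DMSO explants, and behind the 8 homeologs under the mean filter.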

Other observations

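Other ligand and receptor genes of the TGF-beta family, outside the BMP set, were mostly few in reads: 15 of 40 homeologs in the table could be tested, of which 6 were higher in K02288/CHIR explants, 2 lower and 7 did not pass (median log2 fold 1.24). Of the 15, 7 reached the mean through the K02288/CHIR libraries alone and 1 through the DMSO libraries alone, and these had to differ. Among the 7 with a mean of at least 10 in both groups, 1 was higher, 1 was lower and 5 did not pass. Of the genes named here, gdf10.L, tgfb2.S, nodal2.L and bmp3.L reached the mean through the K02288/CHIR libraries alone. gdf3.S did so through the DMSO libraries alone. gdf10.L, a divergent BMP family ligand gene, had 398, 676 and 417 normalized counts in K02288/CHIR libraries and 2.76, 2.07 and 0 in DMSO libraries (log2 fold 7.74 ± 0.58, limma adjusted p = 0.000145). Its ratio of reads was 287, and without DMSO library a it was 444 (95% exact interval 123 to 3672). tgfb2.S had 105, 58.7 and 102 in K02288/CHIR libraries and 10.1, 7.25 and 4.94 in DMSO libraries (log2 fold 3.41 ± 0.43, limma adjusted p = 0.000811). nodal2.L, a frog gene of the Nodal ligands, had 134 reads in K02288/CHIR libraries and 0 in DMSO libraries, at least 39.6-fold higher, or at least 24.5-fold to 53.4-fold with a library left out. bmp3.S, for a ligand that opposes BMP signals, was lower at 60.3, 97.8 and 64.8 in K02288/CHIR libraries and 224, 264 and 193 in DMSO libraries (log2 fold -1.62 ± 0.28, limma adjusted p = 0.00279). Its homeolog bmp3.L, named after its values were seen, was higher at 21.7, 40.9 and 26.7 in K02288/CHIR libraries and 0, 5.18 and 1.24 in DMSO libraries (log2 fold 3.63 ± 0.75, limma adjusted p = 0.00605). Its ratio of reads was 14.3, and 56.9 (95% exact interval 9.98 to 2272) without DMSO library b. gdf3.S had 0 reads in K02288/CHIR libraries and 88 in DMSO libraries, 65 of them in library b, and was at least 33.1-fold lower, or at least 13.1-fold lower without that library.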
